A study of Mus musculus with 76 samples.

Results

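Lck was at 10 TPM (transcripts per 1000000 transcripts) or more in 30 of 76 single mouse iHPCs. These 30 cells were chosen by their Lck value and divided by their Tcf7 value: 15 cells had Tcf7 under 10 TPM (Lck without Tcf7, called here cells with Lck alone) and 15 had Tcf7 at 10 TPM or more (Lck with Tcf7). No cell had Tcf7 at 10 TPM with Lck under 10 TPM, so the other 46 cells were under 10 TPM for both (called here cells without Lck). Their values ran up to 3.39 TPM for Lck and 2.40 TPM for Tcf7. iHPCs are blood progenitors that the labels describe as made from pluripotent stem cells in which Runx1, Hoxa9 and Hoxa10 can be switched on, and as able to give mature blood cells in C57BL/6 recipients. All 76 cells carried this same set of factors and belonged to 1 group, without an untreated or uninduced comparison. The cells were sorted singly, but no gate, culture, clone or animal was named, so all cells count as 1 sample. Each comparison is therefore a description over cells without a p-value, and the 95% intervals beside shares of cells (exact, Clopper-Pearson) cover the counting of cells only.

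Lck is the Src family kinase that starts signalling at the T cell receptor: it phosphorylates the CD3 and zeta chains, which recruit the kinase Zap70 and, through it, the adaptor Lat. Tcf7 encodes TCF-1, a transcription factor switched on downstream of Notch in the earliest T cell progenitors, which then helps to turn on Gata3 and Bcl11b. In the mouse, Lck transcription is known to start from a proximal promoter, used mostly in thymocytes, and from a distal promoter that stays in use in mature T cells. Lck is also expressed in natural killer (NK) cells and some other lymphocytes. Lck lies on chromosome 4 at 129548344 to 129573641 and Tcf7 on chromosome 11 at 52246527 to 52283383 (GRCm38.p6, the assembly of mm10).

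The 250 bases before the annotated starts (RefSeq, GRCm38.p6, gene strand, 5′ to 3′) are printed for both Lck starts, for Trat1 and Cd3d, which were found mostly in cells with Tcf7, for Nkg7, which was found in most Lck cells of either kind, and for Prtn3, which was found in nearly all cells with Lck alone. Capitals mark matches, on either strand, to CTTTGA (the core read by Tcf and Lef factors), TGTGGT (the core read by Runx factors) or GATAA (the core read by Gata factors). The table of promoters held no entry under Tox, Hes1.
Lck, distal start, chr4:129573642-129573891, minus strand: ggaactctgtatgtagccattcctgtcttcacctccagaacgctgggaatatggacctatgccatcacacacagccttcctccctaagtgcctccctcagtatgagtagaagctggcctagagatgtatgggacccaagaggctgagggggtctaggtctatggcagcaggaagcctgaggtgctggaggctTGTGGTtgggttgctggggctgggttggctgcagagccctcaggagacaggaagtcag
Lck, proximal start, chr4:129558373-129558622, minus strand: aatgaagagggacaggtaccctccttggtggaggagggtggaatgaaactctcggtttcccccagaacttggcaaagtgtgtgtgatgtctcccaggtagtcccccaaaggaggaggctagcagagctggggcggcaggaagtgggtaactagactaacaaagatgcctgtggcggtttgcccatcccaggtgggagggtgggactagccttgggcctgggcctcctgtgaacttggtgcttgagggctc
Trat1, chr16:48772063-48772312, minus strand: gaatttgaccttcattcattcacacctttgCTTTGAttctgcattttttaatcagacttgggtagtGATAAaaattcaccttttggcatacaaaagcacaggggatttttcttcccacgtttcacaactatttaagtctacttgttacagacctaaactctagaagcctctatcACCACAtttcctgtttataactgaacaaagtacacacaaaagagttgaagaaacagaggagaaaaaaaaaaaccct
Cd3d, chr9:44981536-44981785, plus strand: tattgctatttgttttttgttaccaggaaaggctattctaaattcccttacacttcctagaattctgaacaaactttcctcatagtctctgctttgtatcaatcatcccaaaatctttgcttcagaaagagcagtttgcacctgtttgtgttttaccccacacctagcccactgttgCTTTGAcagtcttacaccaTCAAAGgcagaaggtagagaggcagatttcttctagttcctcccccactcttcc
Nkg7, chr7:43436888-43437137, plus strand: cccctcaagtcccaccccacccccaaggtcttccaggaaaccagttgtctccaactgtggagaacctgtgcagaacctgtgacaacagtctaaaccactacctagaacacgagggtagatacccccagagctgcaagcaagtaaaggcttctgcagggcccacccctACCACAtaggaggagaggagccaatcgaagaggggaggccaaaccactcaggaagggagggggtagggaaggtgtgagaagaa
Prtn3, chr10:79879417-79879666, plus strand: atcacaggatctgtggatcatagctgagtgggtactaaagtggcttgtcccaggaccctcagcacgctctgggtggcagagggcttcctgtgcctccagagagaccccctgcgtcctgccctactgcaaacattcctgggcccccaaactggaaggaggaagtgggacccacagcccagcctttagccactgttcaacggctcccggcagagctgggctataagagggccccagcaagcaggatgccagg

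Neither Lck window held CTTTGA or GATAA, and the distal one held 1 TGTGGT. Trat1 held 1 match of each kind, Cd3d held 2 of CTTTGA, Nkg7 held 1 of TGTGGT and Prtn3 held none of the 3. Of genes whose windows are not printed, Mpo, in more of the cells with Lck alone, held 1 CTTTGA, and Tmem121, in fewer of them, held 1 TGTGGT and no CTTTGA. Matches could overlap. Over all 32851 windows of this length, CTTTGA was in 13.8%, TGTGGT in 14% and GATAA in 22.6%. The windows of genes in fewer of the cells with Lck alone, by the rule given further on, held CTTTGA in 13.4% (21 of 157), and those of genes in more of these cells in 10.2% (32 of 315). TGTGGT was in 14.6% and 12.7% of these windows and GATAA in 13.4% and 13.3%. For GATAA both shares were under that over all windows. A match of this kind is a description of letters, and the deposited gene-level values do not tell the 2 Lck starts apart.

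The values that chose the cells were well separated from the threshold. The highest Lck value under it was 3.39 TPM and the lowest above it were 14.4, 35.1 and 46.4 TPM. For Tcf7 the highest value under the threshold was 3.71 TPM and the lowest above it were 53.1, 68.2 and 71.7 TPM. The cell with the lowest accepted Lck (14.4 TPM) was also the one with Tcf7 at 3.71 TPM. In the cells with Lck alone, Lck ran from 14.4 TPM over a median of 169 TPM to 1149 TPM, and in the cells with Tcf7 from 81.8 TPM over 346 TPM to 2345 TPM. The ranges overlapped from 81.8 to 1149 TPM, but Lck was mostly higher with Tcf7. Its lower and upper quartiles were 113 and 241 TPM with Lck alone and 215 and 716 TPM with Tcf7. The part of this difference in Lck in the comparisons below was not tested. Tcf7 in its 15 cells ran from 53.1 TPM over a median of 349 TPM to 1687 TPM. A value under 10 TPM can be a failed capture: Polr2a, which every cell uses, reached 10 TPM in 2 cells of each kind. How many of the 15 cells without Tcf7 lacked its RNA in this way was not tested.

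**Figure D1:**
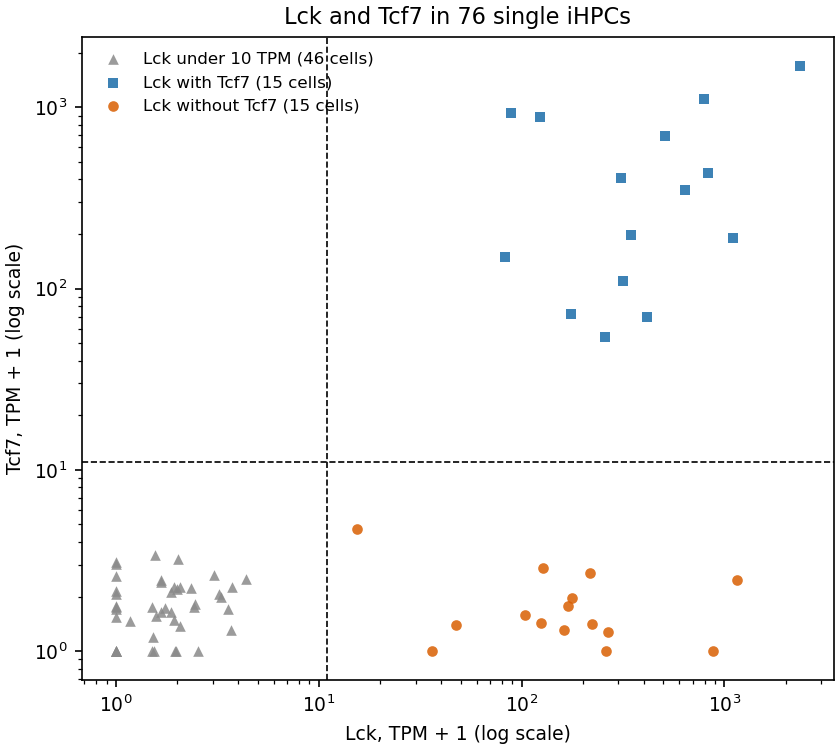
Tcf7 against Lck in 76 cells, each as TPM + 1 on a log axis, with the 10 TPM thresholds dashed (orange circles, Lck without Tcf7; blue squares, Lck with Tcf7; grey triangles, Lck under 10 TPM). The upper left field is empty. Lck has no value between 3.39 and 14.4 TPM and Tcf7 none between 3.71 and 53.1 TPM. The cell with Lck at 14.4 TPM lies nearest to a threshold.

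The cells with Lck alone had the most genes detected of the 3 kinds, a median of 4531 genes at 1 TPM or more (range 3385 to 5992), against 4177 (3061 to 5871) in the cells with Tcf7 and 4057 (2465 to 5821) in those without Lck. Read depth is unknown, since TPM does not keep it. Each kind of Lck cell had 9 cells with title numbers 2 to 6 and 6 with 7 to 11, numbers that have the form of plate positions, although the labels do not say so. Ribosomal-protein genes took a median of 8.27%, 7.77% and 7.40% of the TPM in cells with Lck alone, with Tcf7 and without Lck.

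A gene was called when its share of cells at 10 TPM or more differed by at least 33 percentage points, which is 5 of 15 cells. Of 6917 genes at 10 TPM in at least 5 of the 30 Lck cells, Lck and Tcf7 left out, 347 (5.02%) were in more cells with Lck alone and 150 (2.17%) in fewer. The median difference over all 6917 genes was 0.0 points. These counts are not stable: with any 1 of the 30 cells left out they were 190 to 268 in more cells and 80 to 116 in fewer. With 3645 genes taken as detected in every cell, 229 genes were in more cells and 211 in fewer. This is a rule of size without a test, and a difference of 5 cells is small against the counting error: 10 of 15 cells is 66.7% (interval 38.4 to 88.2%) and 5 of 15 is 33% (11.8 to 61.6%). Intervals of the shares did not overlap for 17 genes in more cells (0.246%) and 5 in fewer (0.0723%). Counts of listed genes below are to be read against these percentages. A gene found in only 1 kind of Lck cell is called whenever it enters, since entry and call both ask for 5 cells.

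Tox, Trat1, Ctla4 and Cd3d were in fewer of the cells with Lck alone than of those with Tcf7. Of 65 genes in the lists of T cell receptor and surface genes, proximal T cell receptor signalling and T lineage transcription factors, 58 were in the table and 32 entered the comparison. In the cells with Lck alone 4 were called in fewer cells (Tox, Trat1, Ctla4 and Cd3d) and 0 in more, against 2.17% and 5.02% of all genes. None of these 4 was in 5 cells with Lck alone, so each needed its cells with Tcf7 to enter. For Ctla4 and Cd3d, in 0 cells with Lck alone, the call was fixed on entry. The count of 4 is therefore a description. Tox and Trat1 were also among the 5 genes with lower shares whose intervals did not overlap.

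Tox, an HMG-box factor needed for CD4 T cell and innate lymphoid development, was at 10 TPM in 4 of 15 cells with Lck alone (26.7%, 7.8 to 55.1%). Its values there ran from 0 TPM over a median of 0.442 TPM to 212 TPM. In the cells with Tcf7 it was in 14 of 15 (93.3%, 68.1 to 99.8%), with a median of 110 TPM and a highest value of 1512 TPM. In cells without Lck it was in 10 of 46 (21.7%, 10.9 to 36.4%). Within title numbers 2 to 6 Tox was in 3 of 9 against 8 of 9 cells, and within 7 to 11 in 1 of 6 against 6 of 6.

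Trat1 encodes a transmembrane adaptor that associates with the T cell receptor complex. It reached 10 TPM in 1 of 15 cells with Lck alone (6.7%, 0.2 to 31.9%), at 213 TPM, and in 10 of 15 with Tcf7 (66.7%, 38.4 to 88.2%), where the median was 168 TPM and the highest value 3205 TPM. No cell without Lck had it, which by 3 counts of 46 allows a share of up to 6.52%. Trat1 was in 1 of 9 against 5 of 9 cells in title numbers 2 to 6 and in 0 of 6 against 5 of 6 in 7 to 11.

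Other T cell receptor and surface genes followed the same direction at lower counts. Of 23 on that list, 16 were in the table and 6 entered. All 6 were in fewer cells with Lck alone, with a median difference of -30.0 points. Apart from Cd27, none of the 6 was in 5 cells with Lck alone, so each needed its cells with Tcf7 to enter. Cd3d, a chain of the receptor complex, was in 0 against 5 cells, and Ctla4, an inhibitory receptor, in 0 against 6, where 0 of 15 allows a share of up to 20%. Neither was in a cell with Lck alone, so their calls followed from entering the comparison. The differences of Cd3g (2 against 4 cells) and of Cd7, a surface protein of T and NK progenitors (4 against 8), did not reach the rule. Il2ra, the interleukin 2 receptor chain of later T progenitors, did not enter at 0 against 4 cells. Cd3e was at 10 TPM in none of the 76. Cd27, the most common of the 6, was in 11 against 12 cells. The Cd3d call was lost when any of its 5 cells was left out and with cells of at least 3500 genes (0 of 14 against 3 of 12).

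Genes of proximal T cell receptor signalling did not separate the 2 kinds of Lck cell by the rule. All 27 on the list were in the table, 17 entered, and 0 were called in either direction, with 12 in fewer cells, 3 in more and a median difference of -6.67 points. The rule compares shares of cells and cannot show a difference in level of a gene found in most cells. By a difference of mean log2(TPM + 1) of at least 1, Dgka, Fyb, Lat, Lcp2 and Vav1 were lower with Lck alone. By that measure 816 of 6917 genes were lower and 1322 higher, and list members that were higher were not counted. Lat, the adaptor phosphorylated by Zap70, was in 13 cells with Lck alone (median 275 TPM), in 15 with Tcf7 (653 TPM) and in 30 of 46 without Lck (77.4 TPM). Lcp2 (SLP-76), the adaptor that joins Lat, was in 11, 13 and 20 cells. The phosphatase Ptprc (CD45), which activates Lck, was in 12, 13 and 35, and the inhibitory phosphatase Ptpn6 (SHP-1) in 15, 15 and 39. Among genes too rare to enter, Zap70 was in 2 cells with Lck alone and 0 with Tcf7, whereas Txk, a Tec family kinase (0 against 4), Themis, a regulator of thymocyte selection (0 against 3), and Skap1, an adaptor for integrin activation (0 against 3), were seen with Tcf7. Plcg1, the phospholipase that acts downstream of Lat, was in 4, 3 and 0 cells with Lck alone, with Tcf7 and without Lck.

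Of the 7 other Src family kinases, only Lyn and Fyn entered and neither was called. Lyn, the kinase of myeloid and B cells, was in 9, 10 and 29 cells with Lck alone, with Tcf7 and without Lck, and Fyn, the other such kinase of T cells, in 2, 3 and 15.

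Among T lineage transcription factors, Tox was the only 1 of 9 entered that was called (15 listed). Gata3, the zinc finger factor of T commitment, was in 3 cells with Lck alone (20%, 4.3 to 48.1%) and 7 with Tcf7 (46.7%, 21.3 to 73.4%), a difference under the rule at 10 TPM but called at 5 TPM. Gata3 was in 9 of 46 cells without Lck. The broadly expressed factors Myb (12 against 11 cells), Tcf3, which encodes the E2A proteins (11 against 12), and Hhex (12 against 8) were common to both kinds. Of 16 genes for the Wnt pathway and partners of TCF-1, 7 entered and 1 was called: Ctnnb1, which encodes beta-catenin, was in 9 cells (median 35 TPM) against 14 (121 TPM). That call was at its limit and was lost in 20 of 30 comparisons with 1 cell left out. Aes, a short relative of the Groucho co-repressors, was in 12 against 14 cells, Gsk3b in 8 against 11 and the co-repressor Tle4 in 3 against 5.

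**Figure D2:**
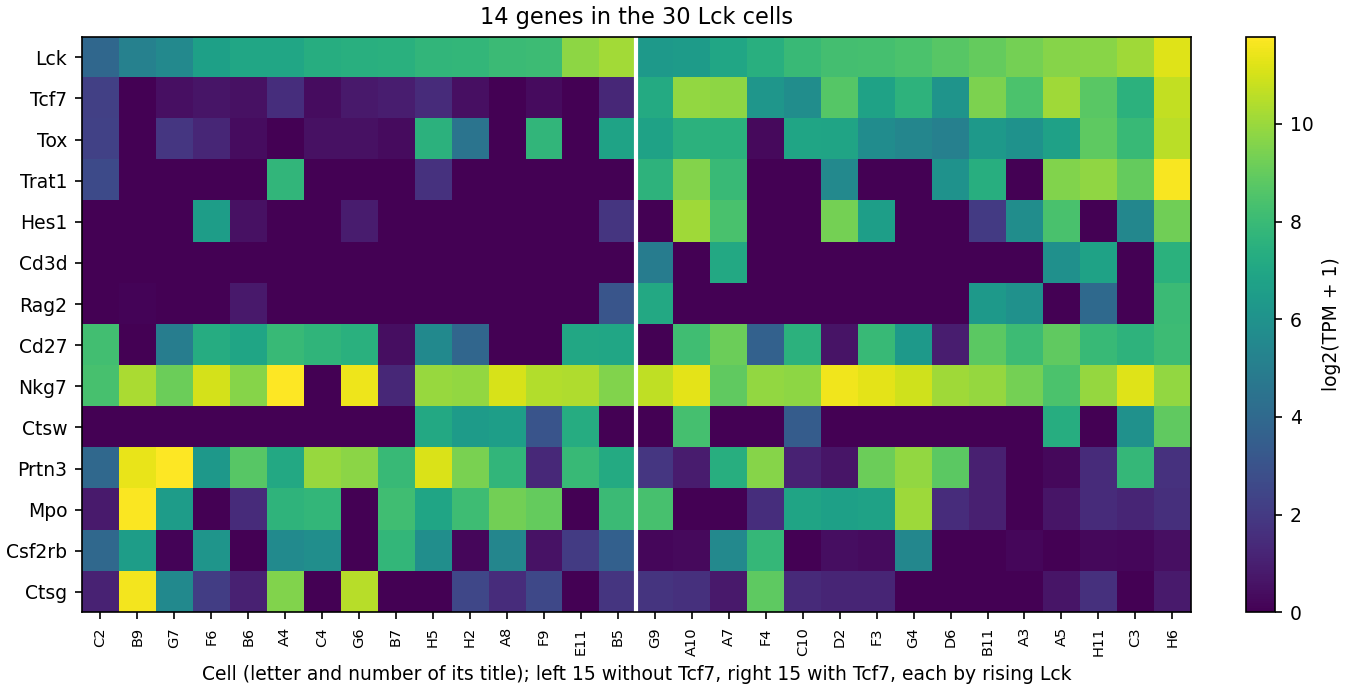
log2(TPM + 1) of 14 genes in each of the 30 Lck cells, named by the letter and number of their titles, with the 15 cells without Tcf7 left of the white line and the 15 with Tcf7 right of it, each ordered by Lck. Tox and Trat1 fill most of the right side (14 and 10 cells) and little of the left (4 and 1), Nkg7 runs through both (13 and 15), and Prtn3 fills the left (14) more than the right (6).

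Notch-responsive genes were found in either kind of Lck cell, depending on the gene. Of 13 listed, 4 entered. Hes1, a repressor induced by Notch in T progenitors, was in 1 cell with Lck alone (6.7%, 0.2 to 31.9%, at 91.8 TPM) and in 8 with Tcf7 (53.3%, 26.6 to 78.7%, median 42.7 TPM). Nrarp, a Notch-induced inhibitor of the same pathway, went the other way, with 7 cells (46.7%, 21.3 to 73.4%) against 2 (13.3%, 1.7 to 40.5%). The Nrarp call was lost in 20 of 30 comparisons with 1 cell left out, that of Hes1 in none. Myc was in 13 against 10 cells and Rbpj, the DNA-binding partner of Notch, in 4 against 5. Among genes too rare to enter, Hes5 was in 3 against 0 cells and Notch3 in 0 against 3.

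Early lymphoid genes were split in a similar way. Of 14 listed, 10 entered, with 1 called in each direction and a median difference of 0.0 points. Rag2 encodes a subunit of the recombinase that cuts DNA in antigen receptor recombination. It reached 10 TPM in 0 cells with Lck alone and in 5 with Tcf7 (33%, 11.8 to 61.6%), and in none of the 46 without Lck. The Rag2 call was lost when any of those 5 cells was left out. Like those of Cd3d and Ctla4, it followed from entering the comparison. Mef2c, a factor of multipotent and early lymphoid progenitors, was in 9 against 4 cells, and in 28 of 46 without Lck; its call was lost in 20 of 30 comparisons with 1 cell left out. Il7r, the interleukin 7 receptor, did not enter (0 against 3 cells). Flt3, the cytokine receptor of multipotent progenitors, was in 9 cells of each kind, as was the lymphoid factor Ikzf1. Ltb (lymphotoxin beta) was in 7 against 11 cells.

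Several lymphoid genes were found in both kinds of Lck cell at similar shares. Cd27, a co-stimulatory receptor of lymphocytes and lymphoid progenitors, was in 11 of 15 cells with Lck alone (73.3%, 44.9 to 92.2%, median 120 TPM) and in 12 of 15 with Tcf7 (80.0%, 51.9 to 95.7%, median 246 TPM). It was in 6 of 46 cells without Lck (13%, 4.9 to 26.3%). Nkg7, a granule membrane protein of NK and cytotoxic T cells that is on the lists of NK and of granulocyte genes, was in 13 (86.7%, 59.5 to 98.3%), 15 and 19 of 46 cells (41.3%, 27 to 56.8%), with medians of 985, 980 and 5.49 TPM. Both genes were in 10 of the 15 cells with Lck alone, 12 of 15 with Tcf7 and 2 of 46 without Lck. In title numbers 2 to 6 Cd27 was in 9 of 9 cells with Lck alone and 7 of 9 with Tcf7, whereas in 7 to 11 the counts were 2 of 6 and 5 of 6.

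Of the NK and innate lymphoid list, 21 of 22 genes were in the table and 8 entered; 1 was called. Id2, an inhibitor of E proteins that favours innate lymphoid fates, was in 6 cells with Lck alone (40%, 16.3 to 67.7%), 12 with Tcf7 (80.0%, 51.9 to 95.7%) and 27 of 46 without Lck. Ctsw, a cathepsin of cytotoxic lymphocytes, was in 4 cells of each kind and in 0 of 46 without Lck. The granule proteases Gzma and Gzmb were in 1 and 2 cells with Lck alone against 5 each with Tcf7, and in 0 without Lck. Fcer1g and Tyrobp, signalling adaptors shared by NK and myeloid cells, were in all 76. Defining NK genes such as Klrd1, Ncr1 and Eomes reached 10 TPM in none of the 30 Lck cells. Of the B lymphoid genes, Cd79b, a B cell receptor chain, was in 8 cells of each kind and 10 of 46 without Lck, and Cd72 in 3, 6 and 1. Cd79a reached 10 TPM in none of the 30.

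Prtn3, Mpo and the receptor gene Csf2rb were in more of the cells with Lck alone than of those with Tcf7, while the granule genes Ctsg, Elane and Ms4a3 did not reach the rule. Of 28 granulocyte and monocyte genes, 27 were in the table and 12 entered. In cells with Lck alone 3 were called in more cells (Prtn3, Mpo and Csf2rb) and 0 in fewer, with a median difference of 20 points against 0.0 over all genes. Prtn3, the neutrophil granule protease proteinase 3, was in 14 of 15 cells with Lck alone (93.3%, 68.1 to 99.8%), from a lowest value of 1.60 TPM over a median of 245 TPM to 3518 TPM. It was in 6 of 15 with Tcf7 (40%, 16.3 to 67.7%, median 2.18 TPM, highest 932 TPM) and in 35 of 46 without Lck (76.1%, 61.2 to 87.4%, median 253 TPM). In title numbers 2 to 6 the counts were 9 of 9 and 5 of 9, and in 7 to 11 they were 5 of 6 and 1 of 6. Prtn3 kept its call in all 30 comparisons with 1 cell left out.

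Mpo, the peroxidase of the same granules, was in 10 cells with Lck alone (median 200 TPM), 5 with Tcf7 (1.81 TPM) and 23 of 46 without Lck (32.1 TPM). The Mpo call was lost in 20 of 30 comparisons with 1 cell left out. Csf2rb, the shared beta chain of the GM-CSF receptor, was in 9, 3 and 26 cells; its value is uncertain, since reads can be exchanged with its close copy Csf2rb2. Unlike Prtn3, Mpo and Csf2rb were not called in cells with at least 3500 genes (Mpo 9 of 14 against 4 of 12, Csf2rb 8 of 14 against 3 of 12). They were also not called when the same number of genes was taken as detected in every cell, where Prtn3 was at the limit of the rule with 14 of 15 against 9 of 15. The cells with Lck alone had the higher number of genes detected, and its part in these differences was not tested.

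Over all 27 genes of this list in the table the summed level ran from 1374 TPM over a median of 3113 TPM to 12986 TPM in the cells with Lck alone. It ran from 509.6 TPM over 2257 TPM to 5357 TPM with Tcf7 and from 288 TPM over 2184 TPM to 10171 TPM without Lck, so the ranges overlapped, and 5 of the 27 genes were at 10 TPM in none of the 30 Lck cells. The sum includes Nkg7, which is also on the NK list and reached 3487 TPM with Lck alone and 2950 TPM with Tcf7. Nkg7 was in a smaller share of the cells without Lck, and its part in the sums was not separated. The protease Ctsg was in 4 cells with Lck alone (26.7%, 7.8 to 55.1%), 1 with Tcf7 and 23 of 46 without Lck (50%, 34.9 to 65.1%). Ms4a3, a marker of granulocyte and monocyte progenitors, was in 2, 0 and 20 cells, and Anxa3 in 4, 0 and 23. Elane was in 1, 0 and 1. The myeloid factor Cebpb was in 14, 12 and 42 cells, the Fc receptor Fcgr3 in 14, 11 and 33, Irf8 in 9, 6 and 27, and Cebpa in 4, 1 and 7.

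Cell by cell, each of the 15 cells with Lck alone had at least 1 of the 5 genes Prtn3, Mpo, Ctsg, Elane and Ms4a3 at 10 TPM, and 10 had at least 2. The counts were 9 and 3 of the 15 with Tcf7 and 39 and 31 of the 46 without Lck. At least 2 of the 16 T cell receptor and surface genes were found in 6 cells with Lck alone, 13 with Tcf7 and 6 of 46 without Lck, and at least 3 in 3, 11 and 0. A granule gene and at least 2 T surface genes were together in 6, 8 and 6 cells. Every cell with Lck alone had a granule gene, so its 6 repeats the count for T surface genes. The counts per cell include Prtn3, Mpo, Trat1, Ctla4 and Cd3d, called above from the same cells, and are not a further result. Prtn3 and Cd27 were together in 11 cells with Lck alone, 5 with Tcf7 and 6 of 46 without Lck, and Prtn3 and Trat1 in 1, 3 and 0.

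**Figure D3:**
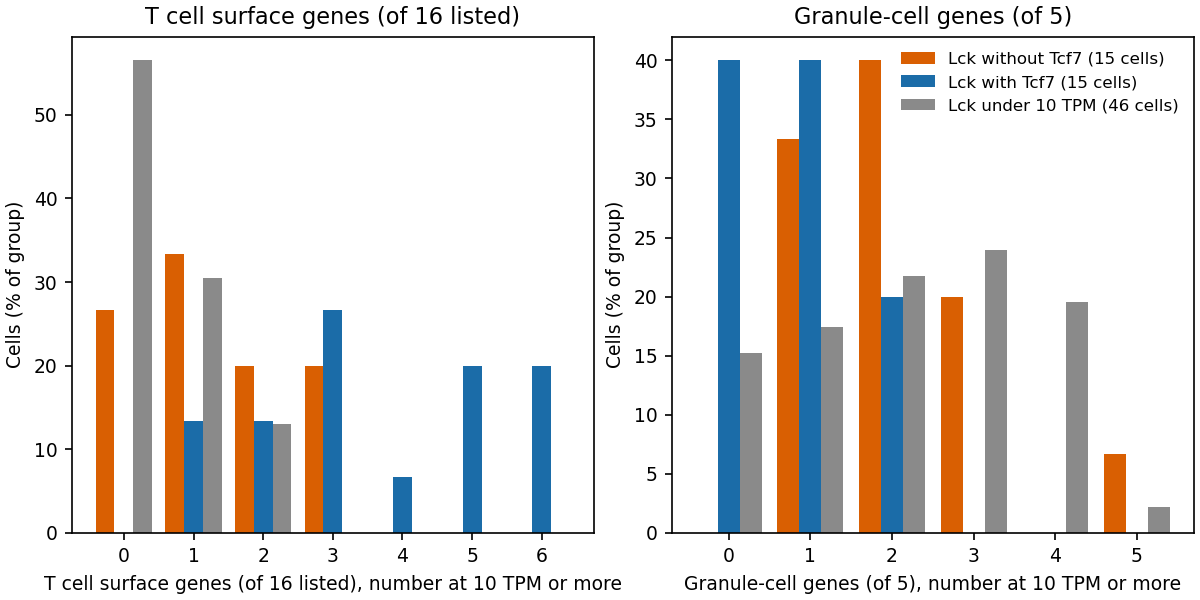
Share of the cells of each kind by the number of T cell surface genes (left, of 16 in the table) and of the genes Prtn3, Mpo, Ctsg, Elane and Ms4a3 (right) at 10 TPM or more. On the left the cells with Tcf7 reach 6 genes and those with Lck alone 3. On the right no cell with Lck alone is at 0. Both sets include genes called from the same cells.

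Of the mast cell, macrophage and dendritic lists, 0 genes were called by their shares of cells. Cpa3, a mast cell protease, was in 12 cells of each kind, with medians of 274 TPM with Lck alone and 1817 TPM with Tcf7, and Srgn, a granule proteoglycan, was in all 76. The summed level of the mast cell and basophil list ran from 249.9 TPM over a median of 1615 TPM to 13539.7 TPM with Lck alone and from 736 TPM over 2459.6 TPM to 24412 TPM with Tcf7, with ranges that overlapped. Mcpt8 was in 2, 0 and 9 cells and Hdc in 1, 0 and 5 with Lck alone, with Tcf7 and without Lck. Of 12 genes on the mast cell list 2 entered and 0 were called. Of the macrophage list only Cd68 and Apoe entered and neither was called; Cd68 was in 8, 5 and 7 cells with Lck alone, with Tcf7 and without Lck. Of the dendritic and MHC class II list 6 of 13 genes in the table entered and 0 were called. Its lectin gene Clec10a was in 7, 4 and 37 cells and H2-Ab1 in 7, 8 and 23. H2-DMa was in 12, 9 and 24, Tcf4 in 8, 6 and 35 and Bst2 in 14, 15 and 34. The macrophage genes Maf and C1qa were in 1 and 0 of the 30 Lck cells.

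Of 8 stem and progenitor surface genes that entered, 0 were called. The tetraspanins Cd9 (15, 15 and 44 cells) and Cd53 (14, 15 and 46), and Cd48 (14, 11 and 46), were in most cells of each kind. Cd34 was in 15, 13 and 46 cells with Lck alone, with Tcf7 and without Lck, Kit in 9, 8 and 16, and Ly6a (Sca-1) in 11, 8 and 29. Among 9 stem and progenitor regulators that entered, 1 was called: Lmo2, an adaptor of blood stem cell transcription complexes, was in 8 cells with Lck alone (median 36.1 TPM), 3 with Tcf7 (0.405 TPM) and 35 of 46 without Lck (200 TPM), a call lost in 20 of 30 comparisons with 1 cell left out. Gata2 was in 4, 4 and 26 cells. Lyl1 was in 13, 12 and 42 cells, Mycn in 12, 10 and 26, Fli1 in 9, 12 and 25 and Etv6 in 7, 7 and 19. Meis1, a homeobox partner of Hoxa9, was in 6, 7 and 4. Of the introduced factors, Runx1 was in 14, 12 and 44 cells, with medians of 75.2, 51.8 and 125 TPM. Hoxa9 was in 1, 0 and 10 cells and Hoxa10 in 1, 0 and 17. Gene-level TPM does not separate introduced copies from the chromosomal genes.

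The endothelial list had 1 gene called in each direction among 3 that entered. Egfl7 was in 15 cells with Lck alone and 10 with Tcf7, and Pecam1 (CD31) in 2 and 8. Egfl7 was not called with 3645 genes taken as detected in every cell (6.67 points). Eng was in 7 against 3 cells and Esam in 3 against 1. Of the stromal list Pdgfrb alone entered and was called, in 6 against 1 cells (lost in 20 of 30 comparisons with 1 cell left out), while Sparc was in 1 against 0 and Col1a1 in none. No cell cycle gene was called by the rule: 0 of 23 S phase genes and 0 of 18 G2 and M phase genes that entered. Of the S phase genes, 11 were in more cells with Lck alone and 9 in fewer. Of the G2 and M phase genes, 2 were in more and 12 in fewer, with a median difference of -6.67 points. The summed G2 and M phase level had a median of 173 TPM with Lck alone and 473 TPM with Tcf7, with ranges that overlapped. Slbp, a histone mRNA binding protein gene, was in 15 against 14 cells, Fen1 in 14 against 12, Mcm6 in 12 against 13 and Mcm4 in 13 against 11. Cdk1 was in 7 against 11, Cenpa in 8 against 9, Cdc20 in 6 against 8 and Ccnb1 in 5 against 7. A median of 16 S phase genes per cell reached 10 TPM in cells of either kind and 9 in cells without Lck, which also had fewer genes detected. Of 11 neighbours of Lck on chromosome 4, 8 entered and 0 were called. Hdac1 and Marcksl1 were in 15 cells of each kind, Eif3i in 14 of each, Tmem234 in 13 of each, and Fam167b in 0 against 1. Of 15 glycolysis genes, all entered and 1 was called: Hk1, a hexokinase gene, was in 10 against 3 cells, while Gapdh, Aldoa and Eno1 were in all 76.

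**Figure D4:**
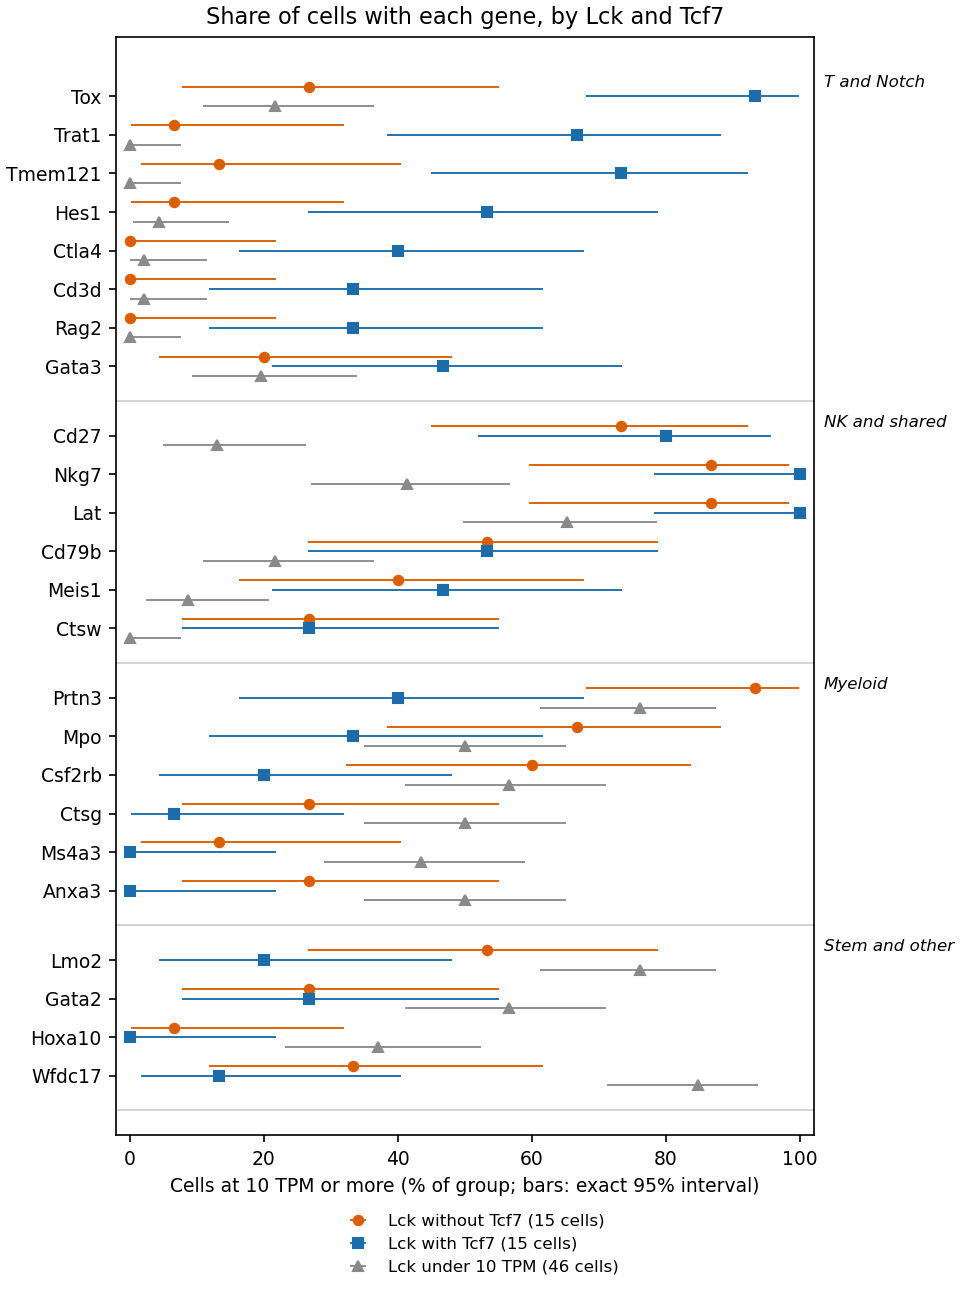
Share of cells at 10 TPM or more, with exact 95% intervals, for 24 genes in 15 cells with Lck alone (orange circles), 15 with Lck and Tcf7 (blue squares) and 46 without Lck (grey triangles). Tox, Trat1 and Tmem121 are highest in the cells with Tcf7, Cd27 is high in both kinds of Lck cell (73.3% and 80.0% against 13%), and Prtn3 is lowest in the cells with Tcf7 (40%).

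Over all genes, Tox had the largest difference of those in fewer cells with Lck alone, 10 cells. Next came Trat1 and Tmem121, a transmembrane protein gene found in 2 cells with Lck alone, 11 with Tcf7 and 0 of 46 without Lck. The others of the 10 largest were Pot1a (telomere protection), the TNF receptor family gene Tnfrsf26, Poldip3, Rnf111, Cep110, Hnrnpa0 and Hes1, with differences of 7 or 8 cells. Pot1a was in 2, 10 and 8 cells with Lck alone, with Tcf7 and without Lck, and Tnfrsf26 in 2, 10 and 4.

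The 10 genes with the largest differences in the other direction were Dcxr, Snhg4, Pdzd11, Emilin1, Gria2, Twistnb, Prtn3, Atg3, Asah1 and G6pc3, each found in 8 or 9 more cells with Lck alone. Apart from Prtn3 none was on a list. Dcxr, a carbonyl reductase gene, was in 12, 3 and 18 of 46 cells, and Snhg4, a host gene of small nucleolar RNAs, in 13, 4 and 16. Asah1, a lysosomal ceramidase gene, was in 14, 6 and 34, and Atg3, an autophagy gene, in 15, 7 and 29. With 3645 genes taken as detected in every cell, the difference of Atg3 was 40 points in place of 53.3.

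Set against the 46 cells without Lck, the cells with Lck alone had 191 of 8399 genes (2.27%) in more cells by the same rule and 20 (0.238%) in fewer. The median difference was 4.35 points, in the direction of the larger number of genes detected. Cd27 had the largest difference of all (11 of 15 against 6 of 46), and Nkg7, Nrarp, Cd68, Hk1, Mcm4 and Fen1 were the other listed genes in more cells. Spns3, a gene of the spinster transporter family, was in 13 of 15 against 14 of 46 cells (10 of 15 with Tcf7), and Cox15, a haem A synthesis gene, in 12 of 15 against 10 of 46 (7 of 15 with Tcf7). Of the T lists, only Cd27 was called.

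In fewer cells were Wfdc17 (5 of 15 against 39 of 46, and 2 of 15 with Tcf7), Elovl7, a fatty acid elongase gene (1 against 24, and 1 with Tcf7), and Ms4a6b (1 against 23, and 3 with Tcf7). Clec10a was among the listed genes in fewer cells. The 15 cells with Lck alone enter both comparisons, so the values are given side by side and not as 2 independent results.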

How the data were processed

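The deposited table gives TPM by the authors for 15192 genes in 76 single cells, each column summing to 1000000, so read depth is unknown. The tools used were StringTie 1.3.4, HISAT2 2.1.0, SAMtools 0.1.19 and bcl2fastq, with the genome build mm10, per the submitters' processing notes. The order of steps, annotation and filters are not given in these sources. Per the labels' protocols, sorted single cells were amplified and made into libraries with Vazyme kits, and no doublet caller was run here.

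The cells and gene lists were chosen with earlier results of these data known. Shares of cells at 10 TPM or more were computed over 6917 genes with Python 3.11.15, pandas 2.3.3 and scipy 1.17.1, with 95% Clopper-Pearson intervals. Genes at 10 TPM in at least 5 of the cells compared entered. Lck and Tcf7 were left out. Limits for 0 cells use 3 counts. Named genes are the 4 members of each list used that were in most Lck cells, each called member, the 10 largest differences in each direction, and others chosen after their values were seen, mainly rarer list members (Zap70, Plcg1, Txk, Themis, Skap1, Il2ra, Il7r, Gata3, Hes5, Notch3, Ctsw, Gzma, Gzmb, Ctsg, Ms4a3, Anxa3, Elane, Cebpa, Irf8, Gata2, Meis1, Kit, Ly6a). Alternatives are in the closing section. Promoters are from RefSeq, GRCm38.p6. Some genes that this rule names are not reported here.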

Additional observations from a re-analysis of the deposited data

How the results depend on the processing

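Calls of genes in more and in fewer cells with Lck alone (347 and 150) stayed within 1.5 times at 5 and 20 TPM and with Lck at 50 TPM. They also did so with Tcf7 under 1 TPM or at least 100 TPM, and after rescaling without ribosomal-protein genes. Leaving out the filter could not change them, since a call between the 2 kinds of Lck cell already needs 5 cells. With a difference of mean log2(TPM + 1) of at least 1 the calls were 1322 and 816, and with log2(TPM + 0.1) 1959 and 1224. The T genes that were lower were 15 and 17 (main 4). Both sets hold Cd27, Lat and Lcp2, whose shares were not called between the 2 kinds of Lck cell. The granulocyte and monocyte genes that were higher were 8 and 9 (main 3). Calls against cells without Lck (main 191 and 20) were 1375 and 409, then 2361 and 813. In cells with at least 3500 genes, 229 were in more cells, 1 granulocyte and monocyte gene (Prtn3) was left, and 32 were in fewer than without Lck. With 3645 genes taken as detected in every cell, a setting added after seeing the data, these were 229 in more and 211 in fewer cells, 7 T genes, 1 granulocyte and monocyte gene (Prtn3), and 86 and 61 against cells without Lck. Within title numbers 2 to 6 (9 against 9 cells) 425 genes were in more and 520 in fewer cells, and 348 and 159 were called against cells without Lck. There more genes were in fewer cells with Lck alone than in more, the reverse of the main counts. Within 7 to 11 (6 against 6) 1024 and 260 genes were called, with 5 granulocyte and monocyte genes, and 836 and 129 against cells without Lck. With fewer cells, smaller counts reach the rule. With Tcf7 under 1 TPM, 1 granulocyte and monocyte gene was left, and with Lck at 50 TPM 44 genes were in fewer cells than without Lck. At 1 TPM for both genes, 26 cells had Lck and Tcf7.

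Leaving out each of the 30 cells in turn (added) gave 190 to 268 genes in more and 80 to 116 in fewer cells, 3 to 5 T genes and 2 to 3 granulocyte and monocyte genes, and 163 to 240 and 19 to 26 against cells without Lck. A difference of 5 cells can fall under the rule when a group has 14. Tox, Trat1, Ctla4, Hes1, Id2, Csf2rb and Prtn3 were called in each of these, whereas Mpo, Mef2c, Lmo2, Nrarp, Pdgfrb and Ctnnb1 were lost in 20 of 30. The differences in share of named genes under 4 other settings were set against the interval of the share with Lck alone. The yardstick was the mean distance from that share to the ends of its interval. By it 467 moved by no more, 17 moved by more and 0 of those called changed direction. Prtn3 was 33 points apart with 3645 genes per cell, and Ctsg -6.67. No paired analysis was possible because the labels give 1 group. The smallest share that 15 cells can show, and unknown read depth, limit all counts.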

Other observations

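Within the 15 cells with Lck alone, Tox and Ctsw lay in cells with more Lck. Both genes were picked after their values were seen, Lck also chose the cells, and this was not tested. The 4 cells with Tox had Lck at 217, 221, 267 and 1149 TPM, and the 4 with Ctsw at 217, 221, 261 and 880 TPM. None of the 9 cells with Lck from 14.4 to 176 TPM had either gene at 10 TPM. Other lymphoid genes did not follow Lck in this way: the highest Cd27 value (296 TPM) was in the cell with the lowest Lck (14.4 TPM), and the highest Nkg7 value (3487 TPM) in a cell with Lck at 126 TPM. The single cell with Trat1 (213 TPM) had Lck at 126 TPM and Tox under 10 TPM.

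The 2 cells with Lck alone with the most genes detected (5992 and 5704) had Lck at 35.1 and 46.4 TPM and 2 of the highest Prtn3 values of the 30 cells (2679 and 3518 TPM). The cell with 5992 genes was the only Lck cell with all 5 of Prtn3, Mpo, Ctsg, Elane and Ms4a3. Among the cells with Tcf7, 10 of the 14 with Tox also had Trat1. The cell with the highest Lck (2345 TPM) also had the highest Tcf7 (1687 TPM), Tox (1512 TPM) and Trat1 (3205 TPM) of all. That cell had the fewest genes detected of the 30 Lck cells (3061 at 1 TPM or more). Lck and Tcf7 also chose the cells, and the part of the low gene number in these high values was not tested.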
